A study of Homo sapiens with 6 samples.

Results

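The pappalysins PAPPA and PAPPA2, the stanniocalcins STC1 and STC2 and the IGF-binding proteins IGFBP2 to IGFBP7 were followed in erastin-treated RPE cells with and without vitamin K1 (VK1). All 10 genes, of 33496 in each library, were found by symbol, and each had a value above 0 in every library. PAPPA2 was chosen by its lower FPKM in this same contrast, so its difference is given as a description with no test. The other 9 were added for what their proteins do: they are the IGF-binding proteins, some of which the pappalysins cut, the relative of PAPPA2 and the stanniocalcins. This choice was made with earlier results of these data known.

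The values come from RNA-seq of ARPE-19 cells, a human RPE line, labelled as wild type in both groups. The cells behind all 6 libraries received erastin (5 μM for 24 h), an inhibitor of the cystine transporter that triggers ferroptosis, an iron-dependent form of cell death. Of the libraries, 3 had erastin alone (Era) and 3 were given VK1 beforehand (10 μM for 1 h; Era+VK). Libraries without erastin were not analysed here, so a difference below sets erastin with VK1 against erastin without it.

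Insulin-like growth factors (IGFs) circulate and act in tissues bound to IGF-binding proteins, which hold them away from the IGF1 receptor. Pappalysins are secreted metalloproteinases that free IGF by cutting these binding proteins: PAPPA2 cuts IGFBP3 and IGFBP5, and PAPPA cuts IGFBP4, IGFBP2 and IGFBP5. STC1 and STC2 are secreted glycoproteins that bind the pappalysins and block them. The RPE is a source of IGF-binding proteins in the retina and choroid.

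Expression is given as FPKM, the fragments of a transcript scaled by its length and by the library's mapped fragments, which is a level per length and allows genes to be set beside each other. Between 24143 and 24601 genes per library were above 0. The depth behind each value is unknown. RPE65, which makes the visual chromophore, was at 0.02 FPKM or less in every library, RLBP1 at 0.29 or less and TYR at 0.17 or less. These defining markers of mature RPE were thus absent or nearly so. BEST1 ran from 0.65 to 57.0 FPKM within Era and from 0.60 to 36.45 FPKM within Era+VK, and the reason for this spread was not tested. PMEL was at 1.07 to 1.42 FPKM and SERPINF1 at 0.40 to 0.91 FPKM, with overlapping groups. The RPE transcription factor OTX2 (27.5 to 31.4 FPKM) and the keratin gene KRT18 (221.8 to 245.8 FPKM) were present, with overlapping groups. The groups did not overlap for MITF, at 15.5 to 15.8 FPKM in Era and 16.8 to 18.6 FPKM in Era+VK, or for KRT8, at 170.8 to 187.5 FPKM in Era and 191.5 to 208.8 FPKM in Era+VK, and the part of these in the results was not tested. The 9 erythroid markers summed to between 0.01 and 0.19 FPKM in the Era libraries and to 0.03 FPKM in Era+VK replicate 1, but to 236.7 and 229.7 FPKM in Era+VK replicates 2 and 3. PAPPA2 and the members that differ most are therefore also given with Era+VK replicate 1 alone. Among the erythroid markers, HBG2 was the highest in Era+VK replicates 2 and 3, at 101.77 and 100.25 FPKM. HBB, another of them, was at 0.04 FPKM or less in every library.

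The start regions of the genes with the lowest Era+VK to Era ratios among the expressed members are shown because the data compare their transcripts. Each is the stretch just before the transcription start, from RefSeq on GRCh38.p14, read 5′ to 3′ on the strand of the gene and cut off where an exon of that gene in GENCODE 29 begins. For IGFBP3, GENCODE 29 also has an exon further upstream, so its stretch lies within the annotated gene. Capitals mark a TATA box on that strand, searched as TATANA. The stretches are chr1:176462925-176463170 on the plus strand for PAPPA2, chr7:45921275-45921522 on the minus strand for IGFBP3, and chr2:216695550-216695799 on the minus strand for IGFBP5.
PAPPA2: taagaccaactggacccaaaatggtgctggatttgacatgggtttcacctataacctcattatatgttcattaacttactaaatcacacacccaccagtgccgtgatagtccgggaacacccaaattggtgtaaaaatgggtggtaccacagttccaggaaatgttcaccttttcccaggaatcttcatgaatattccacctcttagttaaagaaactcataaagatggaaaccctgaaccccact
IGFBP3: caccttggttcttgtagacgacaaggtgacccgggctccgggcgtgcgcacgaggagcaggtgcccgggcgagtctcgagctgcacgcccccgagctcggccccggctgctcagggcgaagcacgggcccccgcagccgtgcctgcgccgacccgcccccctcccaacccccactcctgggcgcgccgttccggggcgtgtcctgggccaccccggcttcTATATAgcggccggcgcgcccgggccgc
IGFBP5: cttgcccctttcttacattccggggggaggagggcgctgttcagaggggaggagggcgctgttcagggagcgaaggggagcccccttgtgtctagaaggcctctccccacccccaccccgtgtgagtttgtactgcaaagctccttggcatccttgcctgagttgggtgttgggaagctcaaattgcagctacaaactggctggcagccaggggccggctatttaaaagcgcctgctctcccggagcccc

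Over the 250 bases before the start, TATANA was present on the gene's own strand in IGFBP3 (30 bases before the start), IGFBP4 (29 bases) and PAPPA (28 bases), and in either direction in 17.7% of 35116 RefSeq windows of that length. It was not found in the windows of PAPPA2, STC2, IGFBP2, IGFBP5 or IGFBP6, of which all 250 bases for STC2 and 231 for IGFBP6 lie in exons of these genes in GENCODE 29. The core of the element bound by ATF4 with C/EBP partners, TGATGNAA, is held by 3.14% of all windows on either strand and was found in no member's window searched. The same held for the cyclic AMP response element TGACGTCA (1.65% of windows) and for ACGTG, the core of the hypoxia response element (18.5%). The windows differed in base composition, from 42.8% G and C in PAPPA2 to 76.0% in IGFBP3. STC1 and IGFBP7 were not searched here.

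PAPPA2 (ENSG00000116183) spans 176463171 to 176845605 on chromosome 1 of GRCh38, with up to 23 exons in GENCODE 29. It was at 9.85, 9.08 and 7.85 FPKM in Era replicates 1, 2 and 3, and at 3.15, 3.99 and 4.74 FPKM in Era+VK replicates 1, 2 and 3. The groups did not overlap, and the lowest Era library stood well above the highest Era+VK library. Era averaged 8.93 ± 1.01 FPKM and Era+VK 3.96 ± 0.795 FPKM (SD, n = 3 each). On log2(FPKM + 1), a scale on which changes of low genes come out too small, the difference was -1.01, number 6 from the bottom among the 11981 genes that averaged 1 FPKM or more over all libraries. In that order CHAC1 (-1.19), a glutathione-degrading enzyme, came just before PAPPA2, and the unnamed gene ENSG00000224163 just after it, followed by PCK2 (-0.95), a mitochondrial enzyme of gluconeogenesis. Era+VK replicate 1, the one VK1 library without erythroid transcripts, was the lowest of all 6, and alone against the Era libraries the log2 difference was -1.25. In bulk RNA, fewer cells that make a transcript and less of it per cell cannot be told apart.

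PAPPA (ENSG00000182752, chromosome 9, 116153804 to 116402322) encodes the other pappalysin. It lay between 0.01 and 0.04 FPKM in Era and between 0.02 and 0.05 FPKM in Era+VK, and the groups overlapped. PAPPA2 was thus the pappalysin with the higher level in each of the 6 libraries. Both genes are known for high levels in placenta, so trophoblast markers were read beside them. The 6 such markers in the files summed to 40.9 to 42.1 FPKM in Era and 42.2 to 43.8 FPKM in Era+VK, of which the pregnancy-specific glycoprotein gene PSG4 alone held 37.8 to 41.2 FPKM. PSG4 has close copies among which reads could be split. The chorionic gonadotropin genes CGB3 and CGB5 and the syncytin gene ERVW-1 were at 0.10 FPKM or less, and CGA, CSH1, GCM1 and HLA-G were not analysed here.

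**Figure D1:**
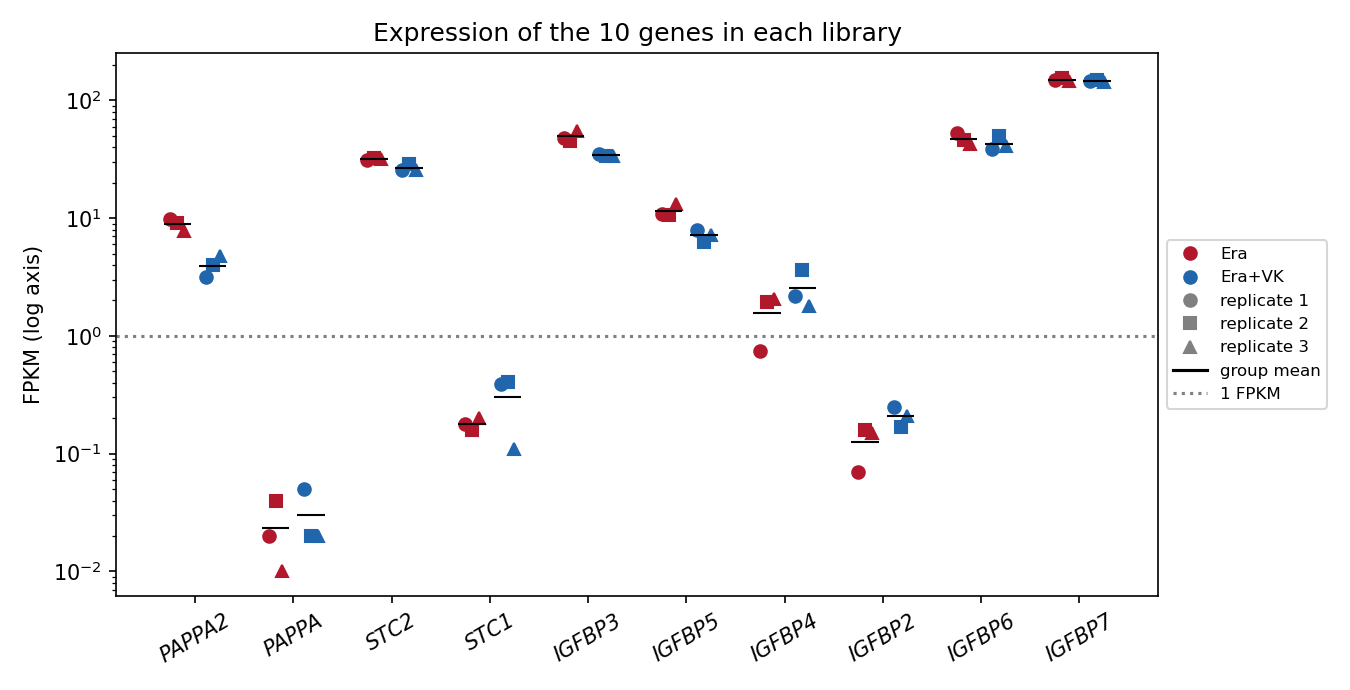
Level of each of the 10 genes in each of the 6 libraries, in FPKM on a log axis, with Era in red, Era+VK in blue, one symbol per replicate number and a black line at the group mean. The PAPPA2, STC2, IGFBP3 and IGFBP5 points of the groups do not overlap above the dotted line at 1 FPKM, while PAPPA, STC1 and IGFBP2 lie below it.

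The 9 members chosen by function were compared in a limma fit over all 11981 genes, with Benjamini-Hochberg adjustment. Of these 9, 6 reached a mean of 1 FPKM and were tested, and 2 of the 6, IGFBP3 and IGFBP5, passed an adjusted p of 0.05, both lower in Era+VK. Of all genes tested, 0.618% passed in either direction. The groups did not overlap for 3 of the 6 (IGFBP3, IGFBP5 and STC2), against 22.1% of all genes tested. The median log2 difference of the 6 was -0.19, and that of all genes tested was 0.03. Since the members were chosen with earlier results of these data known, setting them beside all genes is a description. The p-values measure the spread between these libraries, since the labels do not say whether they came from separate cultures.

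STC2 (ENSG00000113739, chromosome 5, 173314713 to 173329503), a pappalysin inhibitor, was the stanniocalcin with the higher level. Its values were 30.97, 32.59 and 31.60 FPKM in Era replicates 1, 2 and 3, and 25.64, 28.98 and 25.70 FPKM in Era+VK replicates 1, 2 and 3. All Era+VK libraries lay below all Era libraries, with Era+VK replicate 2 the nearest to them. Era averaged 31.7 ± 0.817 FPKM and Era+VK 26.8 ± 1.91 FPKM (SD, n = 3 each). The log2 difference was -0.24, with a 95% interval from -0.37 to -0.11 and an adjusted p of 0.123 in limma, so it did not pass. Without Era+VK replicate 2, one of the libraries with erythroid transcripts, its log2 difference was -0.29 and its adjusted p 0.0432 in limma. Without Era+VK replicate 3, the other such library, they were -0.21 and 0.269. Leaving out any 1 of the remaining libraries gave an adjusted p of 0.257 to 0.338 in limma. With Era+VK replicate 1 alone the log2 difference of STC2 was -0.30. STC2 is a known target of ATF4, the stress-induced transcription factor. ATF4 itself fell, from 134.3 to 145.7 FPKM in Era to between 88.2 and 98.8 FPKM in Era+VK (log2 difference -0.55, adjusted p = 0.0128 in limma, and 0.0683 to 0.102 without Era replicate 1, 2 or 3). The part of ATF4 in the values of the members was not tested.

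STC1, the other stanniocalcin (ENSG00000159167), was at 0.18, 0.16 and 0.20 FPKM in Era replicates 1, 2 and 3, and at 0.39, 0.41 and 0.11 FPKM in Era+VK replicates 1, 2 and 3. The Era+VK libraries lay on both sides of the Era range, and at this level the gene was not tested. HIF1A, which encodes the hypoxia-induced factor known to act on STC1, was at 172.8 to 185.8 FPKM in Era and 159.0 to 175.5 FPKM in Era+VK, with overlapping groups (log2 difference -0.09, adjusted p = 0.479 in limma).

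IGFBP3 (ENSG00000146674, chromosome 7, 45912245 to 45921874), the main carrier of IGF in blood and a substrate of PAPPA2, fell with VK1. It was at 48.02, 44.94 and 55.34 FPKM in Era replicates 1, 2 and 3, and at 35.02, 34.02 and 33.70 FPKM in Era+VK replicates 1, 2 and 3. The Era+VK libraries lay close together, while the Era libraries were wider apart with replicate 3 the highest. The means were 49.4 ± 5.34 and 34.2 ± 0.689 FPKM (SD, n = 3 each), a log2 difference of -0.51 (standard error 0.07, 95% interval -0.68 to -0.34, adjusted p = 0.0331 in limma). IGFBP3 was lower in every fit run, with log2 differences between -0.58 and -0.43 without any 1 library, but its adjusted p in limma was then between 0.0636 and 0.128. With Era+VK replicate 1 alone its log2 difference was -0.48 (adjusted p = 0.188 in limma).

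IGFBP5 (ENSG00000115461, chromosome 2, 216672105 to 216695525), which binds extracellular matrix and is a substrate of both pappalysins, also fell. It was at 10.80, 10.71 and 13.08 FPKM in Era replicates 1, 2 and 3, and at 7.97, 6.28 and 7.16 FPKM in Era+VK replicates 1, 2 and 3. As with IGFBP3, Era replicate 3 was the highest library, and no Era+VK library reached the Era range. The means were 11.5 ± 1.34 and 7.14 ± 0.845 FPKM (SD, n = 3 each), a log2 difference of -0.62 (standard error 0.10, 95% interval -0.85 to -0.40, adjusted p = 0.0450 in limma). Without any 1 library the log2 difference was between -0.70 and -0.54, and the adjusted p in limma was under 0.05 only without Era+VK replicate 1 (0.0356), reaching 0.137 without Era replicate 2. With Era+VK replicate 1 alone it was -0.48 (adjusted p = 0.195 in limma).

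**Figure D2:**
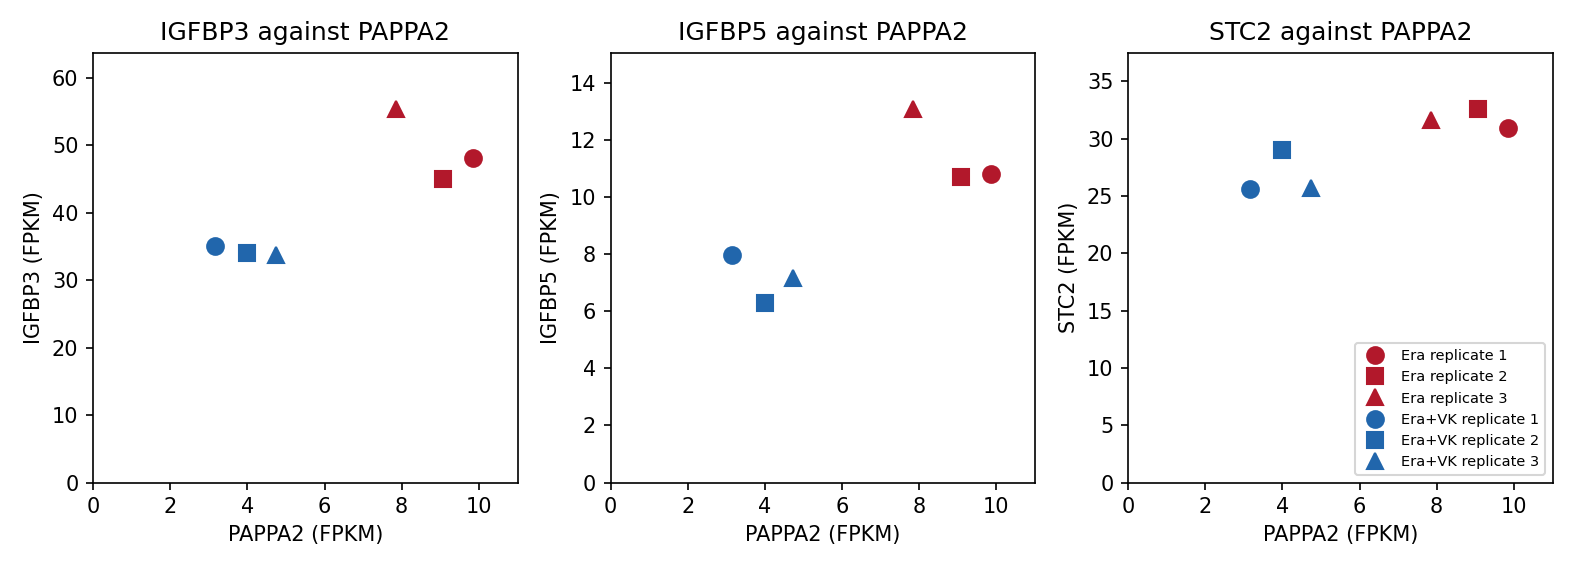
FPKM of IGFBP3, IGFBP5 and STC2 (vertical axes) against FPKM of PAPPA2 (horizontal axis), one point per library, Era in red and Era+VK in blue, all axes from 0. In each panel the 3 Era+VK points sit below and to the left of the 3 Era points, and the Era library with the lowest PAPPA2 (replicate 3, 7.85 FPKM) has the highest IGFBP3 and IGFBP5.

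Within the groups the enzyme and its substrates did not keep the same order. Era replicate 3 had the lowest PAPPA2 of the Era libraries and the highest IGFBP3 and IGFBP5. Era+VK replicate 1 had the lowest PAPPA2 of the Era+VK libraries and the highest IGFBP3 and IGFBP5 there. With 3 libraries in a group, this is a description. Over the 6 libraries, the Pearson correlation of log2(FPKM + 1) with PAPPA2, which is set largely by the difference between the groups that chose PAPPA2, was 0.86 for STC2, 0.85 for IGFBP3 and 0.81 for IGFBP5, ranks 383, 425 and 536 of 11980 genes. It was 0.57 for IGFBP6, 0.46 for IGFBP7 and -0.64 for IGFBP4, ranks 1513, 2030 and 9604. The 5 genes most like PAPPA2 were picked as the highest of 11980 correlations over 6 libraries, so their values are a description. They were STX11 (r = 0.994), TMEM267 (0.992), MSN (0.991), PTPRB (0.991) and SLC29A1 (0.990). Of these, PTPRB, a receptor tyrosine phosphatase of endothelial cells, was at 6.35, 5.90 and 5.50 FPKM in Era and 3.67, 4.31 and 4.30 FPKM in Era+VK, while STX11 lay between 1.02 and 1.23 FPKM over both groups. The 5 endothelial markers summed to 0.63 to 1.07 FPKM per library, with CDH5 at 0.02 FPKM or less. The 5 fibroblast markers in the files summed to 25.9 to 29.9 FPKM in Era and 32.9 to 41.7 FPKM in Era+VK, nearly all of it PDGFRB, with LUM and DCN at 0 in every library. The part of these in the results was not tested.

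The remaining binding proteins did not pass the test. IGFBP4 (ENSG00000141753, chromosome 17, 40443461 to 40457731), the main substrate of PAPPA, was at 0.74, 1.95 and 2.04 FPKM in Era replicates 1, 2 and 3, and at 2.17, 3.63 and 1.81 FPKM in Era+VK replicates 1, 2 and 3. The groups overlapped, and the low value of Era replicate 1 and the high value of Era+VK replicate 2 set most of their distance. The log2 difference was 0.47 with a wide 95% interval from -0.12 to 1.05 (adjusted p = 0.411 in limma), and it was 0.21 without Era replicate 1 and 0.26 without Era+VK replicate 2. IGFBP4 was the one tested member with a positive difference.

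IGFBP6 (ENSG00000167779, chromosome 12, 53097436 to 53102345), which prefers IGF2 over IGF1, was at 52.66, 46.00 and 43.01 FPKM in Era replicates 1, 2 and 3, and at 38.46, 49.54 and 41.10 FPKM in Era+VK replicates 1, 2 and 3. The groups overlapped, and the log2 difference was -0.13 (95% interval -0.38 to 0.11, adjusted p = 0.571 in limma). IGFBP7 (ENSG00000163453, chromosome 4, 57030773 to 57110385), a relative with low affinity for IGF that is laid down in basement membrane, had the highest level of all members. It was at 148.80, 156.03 and 144.89 FPKM in Era replicates 1, 2 and 3, and at 144.97, 150.10 and 144.71 FPKM in Era+VK replicates 1, 2 and 3. The groups nearly coincided, with a log2 difference of -0.03 (95% interval -0.14 to 0.07, adjusted p = 0.781 in limma), which was 0.02 after quantile normalization. Exons of IGFBP7 overlap those of POLR2B, a subunit gene of RNA polymerase II on the opposite strand, which was at 25.8 to 27.6 FPKM, and whether the counting used strand is not given in the sources used here. The antisense genes PAPPA-AS1 and IGFBP7-AS1 were at 0.04 FPKM or less. The antisense gene AC007563.2, whose exons overlap those of IGFBP5, was not analysed here.

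IGFBP2 (ENSG00000115457) lies beside IGFBP5 on chromosome 2 (216632828 to 216664436), on the other strand with 7668 bases between them. It was at 0.07, 0.16 and 0.15 FPKM in Era replicates 1, 2 and 3, and at 0.25, 0.17 and 0.21 FPKM in Era+VK replicates 1, 2 and 3. The groups did not overlap by the second decimal, in the opposite direction to IGFBP5, at a level too low to be tested. IGFBP1, which is no member but lies beside IGFBP3 with 18576 bases between them, was at 0.23, 0.19 and 0.27 FPKM in Era, and at 0.06 and 0.10 FPKM in Era+VK replicates 2 and 3, and was listed at 0 in Era+VK replicate 1. It too was below the minimum for testing.

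In order of mean level in Era, the members ran from IGFBP7 (149.9 FPKM) through IGFBP3, IGFBP6 (47.2 FPKM), STC2, IGFBP5, PAPPA2 and IGFBP4 (1.58 FPKM) to STC1, IGFBP2 and PAPPA (0.0233 FPKM). The libraries of IGFBP3 and IGFBP6 overlapped in Era, so these neighbours did not differ beyond their spread, whereas in Era+VK all libraries of IGFBP6 lay above all those of IGFBP3. IGFBP5 and PAPPA2 were apart in Era, as they were in Era+VK. The summed FPKM of IGFBP2 to IGFBP7 was 261.1, 259.8 and 258.5 in Era replicates 1, 2 and 3, and 228.8, 243.7 and 228.7 in Era+VK replicates 1, 2 and 3. IGFBP7 made up 56.0% to 60.1% of this sum in Era and 61.6% to 63.4% in Era+VK. IGFBP3 made up 17.3% to 21.4% in Era and 13.96% to 15.3% in Era+VK, and IGFBP6 16.6% to 20.2% and 16.8% to 20.3%. As a description, since PAPPA2 was chosen by its lower level and this sets the direction of any ratio with it, the summed FPKM of IGFBP3 and IGFBP5 was 5.97 to 8.72 times that of PAPPA2 in Era and 8.62 to 13.6 times in Era+VK, which overlap. The ratio of PAPPA2 to STC2, to which the same applies, was 0.248 to 0.318 in Era and 0.123 to 0.184 in Era+VK.

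**Figure D3:**
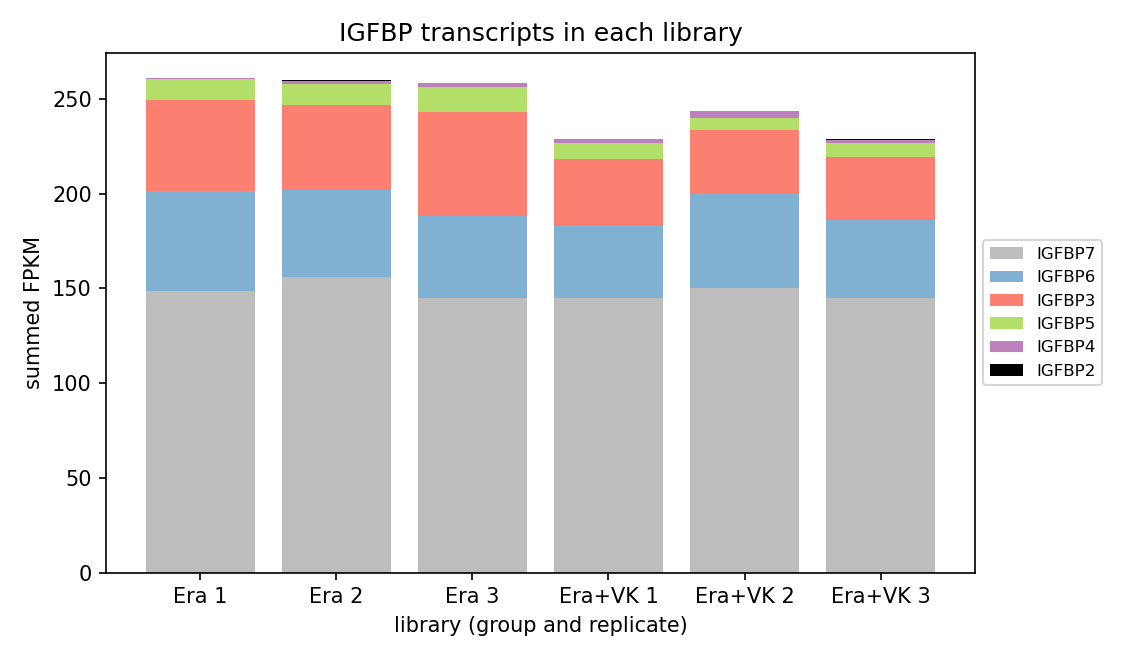
Summed FPKM of the 6 IGFBP members in each library as stacked bars from 0, one color per gene, with IGFBP2 too low to be seen in most bars. The sums lie between 258.5 and 261.1 FPKM in Era and between 228.7 and 243.7 FPKM in Era+VK, and the IGFBP3 and IGFBP5 segments are the ones that are smaller in every Era+VK library.

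The deposited annotation places all 10 members in the extracellular region. Its term for insulin-like growth factor binding covers the 6 IGFBP members, and it gives PAPPA and PAPPA2 metalloendopeptidase activity and the stanniocalcins hormone activity. Fibronectin binding is annotated to IGFBP3, IGFBP5 and IGFBP6 among the members.

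Outside the members, none of the IGF pathway genes listed for this comparison passed the test. Of 45 listed genes, 43 were in the files, and 32 reached a mean of 1 FPKM. In limma 0 of the 32 had an adjusted p under 0.05, against 0.618% of all genes tested, and 7 had an unadjusted p under 0.05. The share of all genes with an unadjusted p under 0.05 was not counted, so such counts, here and below, have no background beside them. Their median log2 difference was 0.04, near the 0.03 of all genes tested. Of the means, 22 were higher and 10 lower in Era+VK, and the share of higher means among all genes was not counted. The groups did not overlap for 9 of the 32, against the 22.1% of all genes given above.

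Of the ligands, IGF2 was at 0.04 FPKM or less in every library, and IGF1 and INS were not analysed here. The signalling receptor IGF1R was at 11.32, 11.26 and 11.02 FPKM in Era replicates 1, 2 and 3, and at 12.72, 11.46 and 12.14 FPKM in Era+VK replicates 1, 2 and 3. Every Era+VK library lay above every Era library by a small margin, with a log2 difference of 0.10 (95% interval -0.01 to 0.22, adjusted p = 0.364 in limma). IGF2R, which takes IGF2 up for degradation, was at 29.2 to 31.0 FPKM in Era and 26.5 to 31.4 FPKM in Era+VK (log2 difference -0.04, 95% interval -0.19 to 0.10). The insulin receptor gene INSR was at 6.56 to 7.17 FPKM in Era and 6.55 to 7.48 FPKM in Era+VK (log2 difference 0.06, 95% interval -0.08 to 0.20).

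Among the other proteases that cut IGF-binding proteins, 0 of 6 tested genes passed in limma and 3 had an unadjusted p under 0.05. HTRA1, a secreted serine protease that cuts IGFBP5, was at 22.94, 23.94 and 22.61 FPKM in Era replicates 1, 2 and 3, and at 26.90, 29.20 and 25.85 FPKM in Era+VK replicates 1, 2 and 3. Its groups did not overlap, with Era+VK the higher, and its log2 difference was 0.23 (95% interval 0.10 to 0.35, adjusted p = 0.123 in limma). The cathepsin D gene CTSD was the most abundant of these proteases, at 471.9 to 481.7 FPKM in Era and 431.8 to 452.3 FPKM in Era+VK (log2 difference -0.11, adjusted p = 0.306 in limma). Of the 20 tested signalling genes, 0 passed in limma and 4 had an unadjusted p under 0.05. The adaptor gene SHC1 had a log2 difference of -0.19, the insulin receptor substrate gene IRS2 one of -0.15 and the phosphoinositide 3-kinase subunit gene PIK3R3 one of 0.27, with adjusted p-values of 0.138, 0.286 and 0.163 in limma. PRG2, whose product is a further inhibitor of PAPPA, was listed at 0 in all Era libraries and in Era+VK replicate 1 and at 0.10 and 0.19 FPKM in the VK1 libraries with erythroid transcripts.

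**Figure D4:**
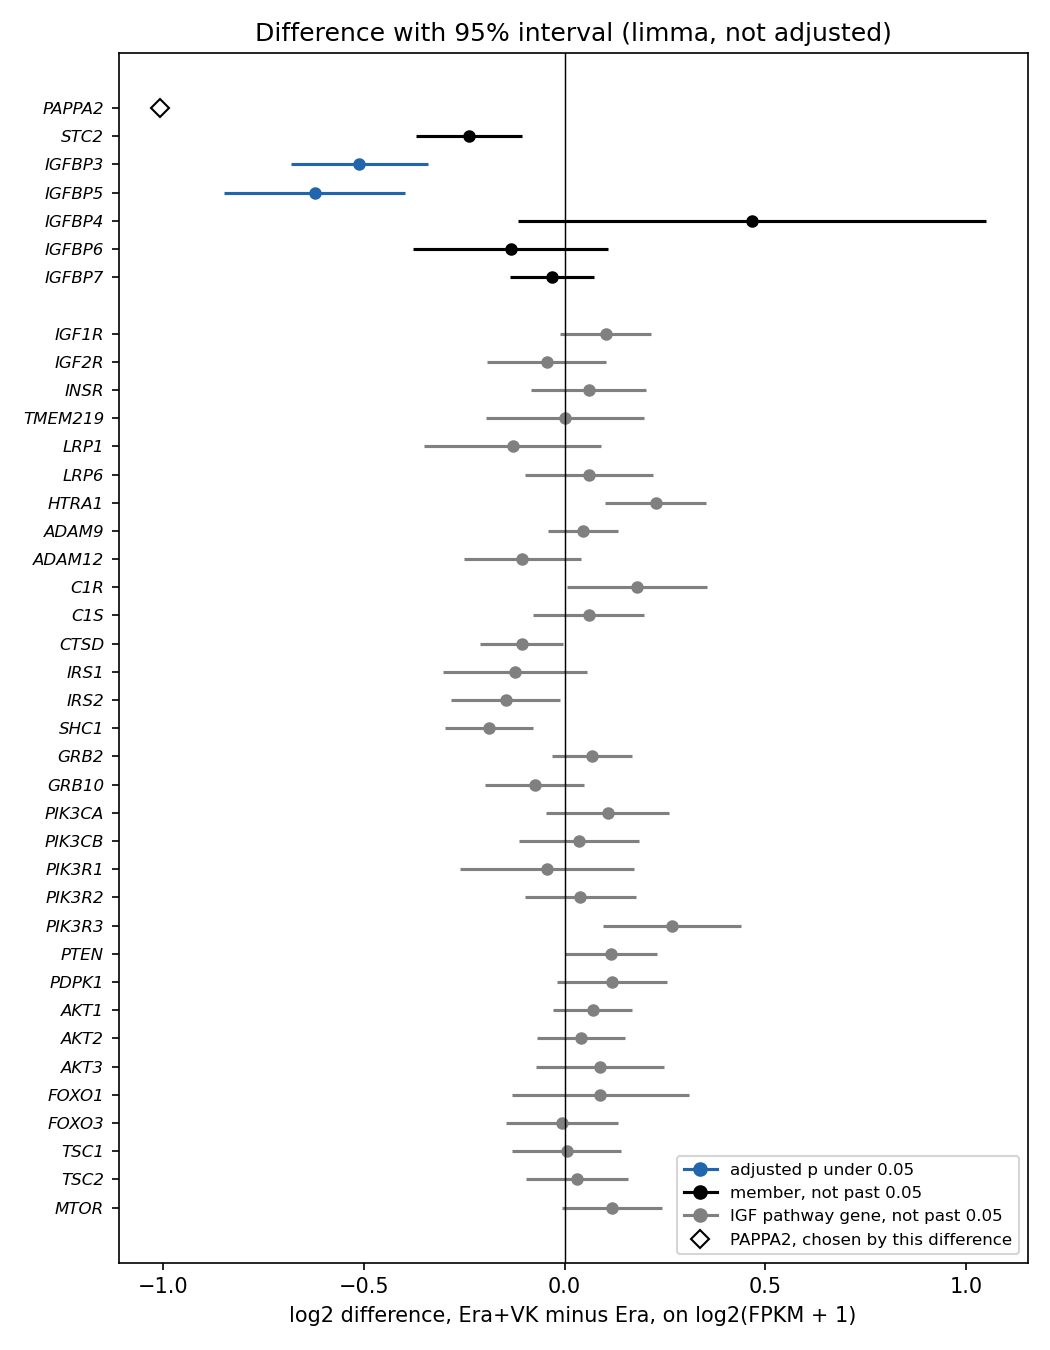
Log2 difference of Era+VK minus Era on log2(FPKM + 1), with its 95% interval from limma, for PAPPA2 (open diamond, no interval since it was chosen by this value), the 6 tested members chosen by function and the 32 tested IGF pathway genes in grey. IGFBP3 (-0.51) and IGFBP5 (-0.62), in blue, passed an adjusted p of 0.05, and the point of each pathway gene lies between -0.19 and 0.27.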

How the data were processed

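RNA-seq values of 6 ARPE-19 libraries, 3 Era and 3 Era+VK, were used. The cell line label counts up from library to library, whereas all titles name ARPE-19. The authors deposited FPKM values with 2 decimals; the submitters' processing notes name cutadapt, HISAT2, StringTie 2.1.6 and the mouse build mm10, although the gene identifiers are human. Low FPKM values of 1798 to 1901 single-exon genes per library did not fall on multiples of whole reads, so depth is unknown, no interval for counting error is given and no count model was run.

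All 11981 genes that averaged 1 FPKM or more were fitted in R 4.3.3 with limma 3.58.1 (trend) on log2(FPKM + 1), Era+VK against Era, with a threshold of 0.05 on the Benjamini-Hochberg adjusted p. The fit was tested on simulated data. Members and lists were chosen with earlier results of these data known. Genes named are the members, the ligands and receptors, neighbouring and antisense genes, ATF4, HIF1A, the 5 genes most correlated with PAPPA2 and those next to it in the order of differences; HTRA1, CTSD, SHC1, IRS2, PIK3R3, PRG2 and POLR2B were named after their values were seen. Gene positions are from GENCODE 29 on GRCh38, matched by identifier.

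Alternatives were a pseudocount of 0.1, no filter, 1 FPKM in every library, quantile normalization, rescaling without mitochondrially encoded genes, blocking on the replicate number, and leaving out 1 library at a time. Era+VK replicate 1 alone was added after seeing the data.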

Additional observations from a re-analysis of the deposited data

How the results depend on the processing

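Of the 9 members chosen by function, 2 passed an adjusted p of 0.05 in limma, and 2 also passed with a pseudocount of 0.1, with 1 FPKM required in every library and after quantile normalization. IGFBP5 did not pass after rescaling without mitochondrially encoded genes (adjusted p = 0.0513 in limma), which left 1 member. With no filter, 31325 genes were tested and 0 members passed in limma, 3 of them with an unadjusted p under 0.05. Without any 1 library, between 0 and 1 members passed: 0 in limma (3 with an unadjusted p under 0.05) without Era replicate 1, 2 or 3 or without Era+VK replicate 3, IGFBP5 alone without Era+VK replicate 1, and STC2 alone without Era+VK replicate 2. With Era+VK replicate 1 alone, where this lone library is assumed to vary like the Era libraries, 0 members passed in limma (4 had an unadjusted p under 0.05) and PAPPA2 had a log2 difference of -1.25 against -1.01 with all libraries. Otherwise its log2 difference lay between -1.17 (pseudocount of 0.1) and -0.89 (without Era+VK replicate 1).

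Whether same-numbered libraries of the 2 groups were paired cannot be settled from these values. The correlations of their deviations from the group means were 0.0709, 0.1035 and 0.0208, and those of differently numbered libraries ran from -0.1138 to 0.0403. Era replicates 1 and 2 correlated best with their own number, and Era replicate 3 with Era+VK replicate 1. Read from the other group, each Era+VK library correlated best with its own number. For Era+VK replicate 3 this was narrow, at 0.0208 against 0.0203 with Era replicate 2. With the replicate block 0 members passed in limma (4 had an unadjusted p under 0.05, and the adjusted p was 0.0683 for IGFBP3 and 0.0641 for IGFBP5), and all genes called went from 74 to 42. Differences close to 0 changed sign for IGFBP7 after quantile normalization (0.0189) and for IGF2R without Era+VK replicate 2 (0.0187, against -0.0991 to 0.0187 without any 1 library). ATF4 did not pass with no filter (adjusted p = 0.0877 in limma) or without any 1 of the Era libraries (0.0683 to 0.102). None of the IGF pathway genes passed in limma under any of these 13 alternatives, with 3 to 8 at an unadjusted p under 0.05. Over all genes, limma called 74 (16 higher, 58 lower), 122 with 1 FPKM in every library, 112 after quantile normalization, 1 with no filter, 35 with Era+VK replicate 1 alone, and 2 to 70 without any 1 library, with 2, 2 and 5 without Era replicates 1, 2 and 3.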
